A study of Mus musculus with 12 samples.

Results

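The 10 genes described here belong to the YAP pathway and to stretch sensing. They are the YAP target genes Cyr61, Ctgf, Ankrd1 and Amotl2, the co-activator genes Yap1 and Wwtr1, the kinase gene Lats2, the transcription factor gene Tead1 and the channel genes Piezo1 and Trpv4. They were chosen by name, as every probe set annotated to 1 of them alone, which gave 23 probe sets of 45037 on the array and 10 of 18193 genes with a single symbol. A further probe set annotated to both Lats2 and Xpo4 was left out. The annotation writes Cyr61 as Ccn1 and Ctgf as Ccn2, and Piezo1 stands under its own name.

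Whole-lung total RNA of mice aged 8 to 12 weeks was measured on 12 single-colour Affymetrix arrays, 3 mice in each of 4 groups. 2 groups, wild type and GADD45-/-, are labelled SB. The other two are wild type and GADD45-/- mice with ventilator-induced lung injury (VILI), given 30 ml/kg tidal volume at 65 breaths per minute over 4 hours. SB stands without explanation in the labels, where the wild type SB animals serve as the control. The knockout is named GADD45-/- in the titles and Gadd45a in the series title. No promoter, Cre or cell type is named for it, and neither strain nor sex is stated. The groups below are called wild type or knockout, SB or VILI.

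YAP and its relative TAZ, the product of Wwtr1, are co-activators that carry no DNA-binding domain and act in the nucleus through TEAD factors. The Hippo kinases LATS1 and LATS2 phosphorylate them and keep them in the cytoplasm, and stretch, stiffness and cell spreading are known to favour their nuclear entry. PIEZO1 and TRPV4 are cation channels, known in lung endothelium and epithelium for calcium entry under mechanical load. YAP activity is set largely by phosphorylation and location, which an RNA array does not measure.

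Gadd45a itself read 8.62 to 10.33 on the 6 wild type arrays and 4.58 to 6.15 on the 6 knockout arrays, so no array went against its genotype label. All values are log2 expression values as deposited, and the median over probe sets of an array lay between 4.355 and 4.58. Defining markers of lung were high on every array, with type II epithelial markers averaging 13.04 to 13.61. Knockout SB replicate 3 and knockout VILI replicate 3 stood apart in B cell markers (mean 9.45 and 10.20, against 5.26 to 7.29 on the other arrays), so results are also given without them where that ends a call or moves a count by over 1.5 times. In whole lung, fewer cells of a type and less RNA per cell cannot be told apart.

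Of the 10 genes, 9 passed the filter on low values, which asked for at least 3 arrays above the array median. Trpv4 did not. Its only probe set read between 1.97 and 2.47 on the 12 arrays, below the median of each, so Trpv4 has values here but no test.

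Cyr61 and Ctgf rose after VILI, and they were the only members to pass. They encode secreted matricellular proteins of the CCN family that bind integrins and matrix, and both are standard readouts of YAP and TEAD. Averaged over genotypes, 2 of the 9 tested members rose and 0 fell at an adjusted p under 0.05 (limma, Benjamini-Hochberg over 10996 genes). Over all genes, 8.42% rose and 9.39% fell in that comparison, 17.8% in all. With the arrays centred on their medians, 36.6% of all calls were rises in place of 47.3%, and both members still rose. The median change of the 9 was 0.01, beside -0.03 over all genes.

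Cyr61 read 10.15, 11.18 and 10.15 in wild type SB and 12.38, 12.10 and 12.44 in wild type VILI. In knockout it read 7.67, 10.31 and 9.99 under SB and 11.63, 11.38 and 10.90 after VILI. Each VILI array lay above each SB array of its genotype, and knockout SB replicate 1 was far below its group. The means were 10.49 ± 0.59 and 12.30 ± 0.18 in wild type and 9.32 ± 1.44 and 11.30 ± 0.37 in knockout (SD, n = 3).

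Averaged over genotypes, Cyr61 rose by 1.90 on the log2 scale (SE 0.39, limma adjusted p = 0.00941), 3.72-fold. The change was 1.81 (SE 0.56, limma adjusted p = 0.0998) in wild type alone and 1.98 (SE 0.56, limma adjusted p = 0.0686) in knockout alone, so neither genotype passed by itself. Without knockout SB replicate 1 the knockout change was 1.16, and the wild type change passed (limma adjusted p = 0.0201). With only the 6 wild type arrays in the fit, the wild type change also passed (limma adjusted p = 0.0312).

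All 4 Cyr61 probe sets were higher after VILI in both genotypes. The set used for the gene, 1416039_x_at, carries a suffix that marks possible cross-hybridisation, and 1438133_a_at, which does not, gave 1.72 in wild type and 1.95 in knockout. The dimmer sets 1442340_x_at and 1457823_at gave 2.91 and 3.63 in wild type and 3.08 and 3.18 in knockout, and they share 1 source sequence. Tested one by one among all kept probe sets, the 4 had limma adjusted p of 0.0125, 0.0209, 0.0168 and 0.0169 averaged over genotypes. On 1457823_at knockout SB replicate 2 lay above the lowest knockout VILI array, and on 1442340_x_at just below it.

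**Figure D1:**
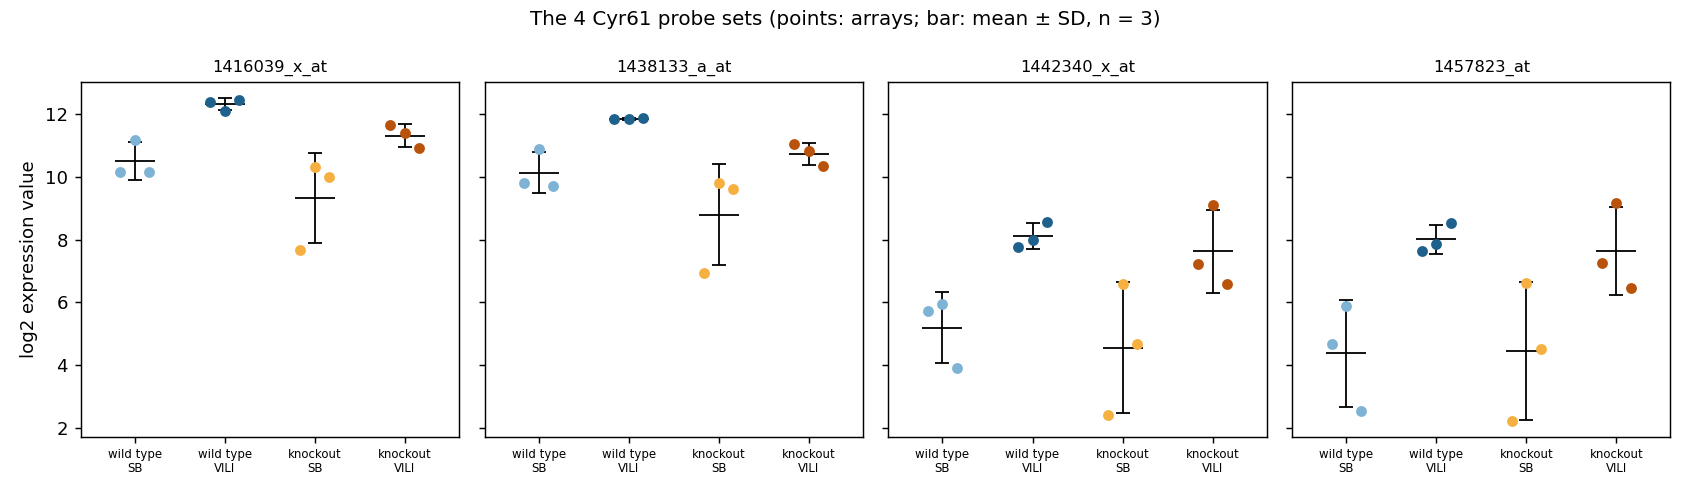
The 4 probe sets annotated to Cyr61, as log2 expression value (vertical axis) by group (horizontal axis); points are arrays and bars the mean ± SD of 3. In wild type every VILI array is above every SB array on each set, while on 1442340_x_at and 1457823_at knockout SB replicate 2 (6.57 and 6.61) lies next to the lowest knockout VILI array (6.58 and 6.46).

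Ctgf read 12.44, 12.99 and 12.46 in wild type SB and 13.37, 13.55 and 13.07 in wild type VILI. In knockout it read 12.19, 12.47 and 12.13 under SB and 13.17, 12.76 and 12.72 after VILI. The groups did not overlap in either genotype. Ctgf rose by 0.66 averaged over genotypes (SE 0.13, limma adjusted p = 0.00704), 1.58-fold, with 0.70 (SE 0.18, limma adjusted p = 0.0649) in wild type and 0.62 (SE 0.18, limma adjusted p = 0.0776) in knockout. Without wild type SB replicate 2, which had the highest SB value, limma's adjusted p in wild type was 0.0409.

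Neutrophil markers rose on the same arrays. Their mean over 7 measured genes of 8 was 6.44 to 7.21 in wild type SB, 9.41 to 10.61 in wild type VILI, 6.99 to 7.58 in knockout SB and 9.73 to 11.18 in knockout VILI, and 7 of 7 passed. Fibroblast markers, whose cells are known to express Ctgf, had means of 11.54 to 11.76, 11.24 to 11.71, 11.38 to 11.76 and 11.32 to 11.44 in the same order. Of these 8 genes 0 rose and 2 fell averaged over genotypes, beside 8.42% and 9.39% of all genes. The part of either in the rise of Cyr61 and Ctgf was not tested.

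Ankrd1, which encodes a nuclear and sarcomeric ankyrin repeat protein of muscle and stretched tissue, did not pass as fitted, though its calls depended on the setting. It read 9.37, 8.22 and 9.83 in wild type SB and 9.26, 9.46 and 9.96 in wild type VILI, and these groups overlapped. In knockout it read 8.49, 7.60 and 8.42 under SB and 9.51, 9.33 and 9.22 after VILI, and these did not. The VILI change was 0.42 (SE 0.37, limma adjusted p = 0.552) in wild type, 1.18 (SE 0.37, limma adjusted p = 0.0928) in knockout and 0.80 (SE 0.26, limma adjusted p = 0.0535) averaged over genotypes. Without wild type SB replicate 2 the wild type change was -0.04, and the knockout change then passed (limma adjusted p = 0.0331). Without wild type SB replicate 3 the average passed (limma adjusted p = 0.031). The other Ankrd1 probe set, 1420991_at, gave 0.64 in wild type and 1.14 in knockout.

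Markers of heart muscle, where Ankrd1 is known to be abundant, varied between arrays. The mean of 11 measured heart markers of 12 was 8.68 to 10.58 in wild type SB, 8.91 to 11.04 in wild type VILI, 9.54 to 9.91 in knockout SB and 9.28 to 9.98 in knockout VILI, and 0 of 11 passed for VILI (limma). The ventricular gene Myl2 stayed below the array medians (highest 2.14). Wild type SB replicate 2 had the lowest heart marker mean of all arrays and the lowest wild type Ankrd1 value, and wild type VILI replicate 3 had the highest of both. Arrays between these extremes did not keep the order. Wild type VILI replicate 2 was at 8.91 for the markers and 9.46 for Ankrd1, and wild type SB replicate 1 at 10.58 and 9.37. The lowest Ankrd1 value of all, 7.60, was in knockout SB replicate 2, where the markers averaged 9.54. In knockout, where Ankrd1 was higher on every VILI array, the heart marker ranges overlapped. Their part in the Ankrd1 values was not tested.

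**Figure D2:**
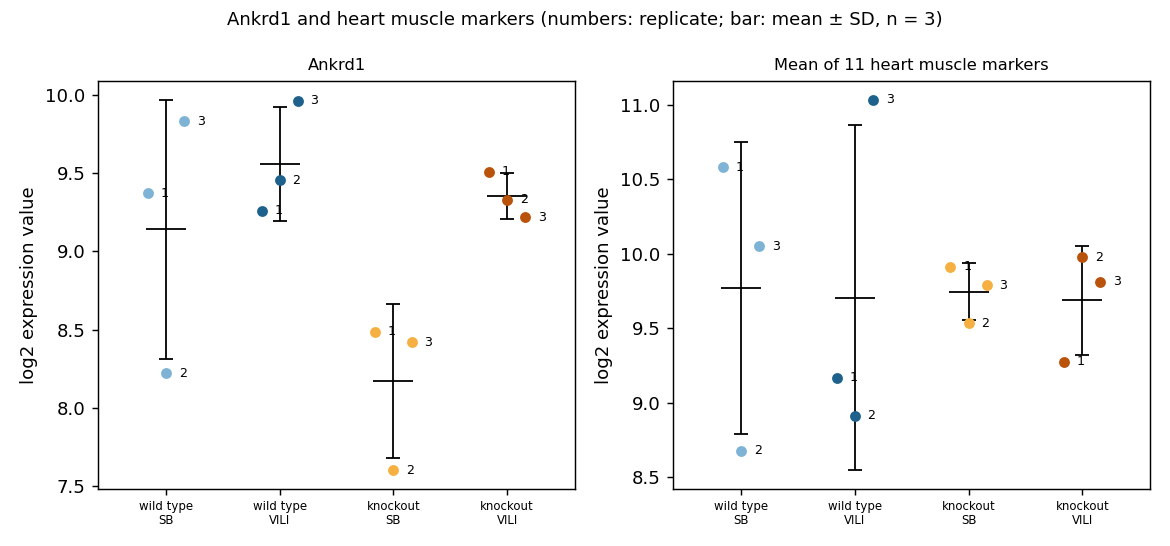
Ankrd1 (left) and the mean of 11 heart muscle markers (right), as log2 expression value (vertical axes) by group (horizontal axes); points are arrays with their replicate number and bars the mean ± SD of 3. Wild type SB replicate 2 is the lowest of the wild type arrays in both (8.22 for Ankrd1, 8.68 for the markers) and wild type VILI replicate 3 the highest (9.96 and 11.04), whereas the knockout groups differ for Ankrd1 and overlap for the markers.

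Amotl2 encodes an angiomotin that binds YAP at junctions and is itself a YAP target. It read 10.10, 9.39 and 9.44 in wild type SB, 9.96, 10.26 and 9.73 in wild type VILI, 9.23, 8.97 and 9.72 in knockout SB and 10.05, 9.57 and 8.88 in knockout VILI. The groups overlapped in both genotypes. The change was 0.27 averaged over genotypes (95% interval -0.20 to 0.73, limma adjusted p = 0.410).

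The upstream sequence of the target genes is shown because TEAD factors are known to read the element CATTCC. Both strands were searched. Of the 10 members, 8 had a window in the RefSeq promoter table of build GRCm38.p6, and Ctgf and Tead1 had none. Each window is the 250 bases before the annotated start, 5′ to 3′ on the gene's strand, with the TEAD element in capitals. They lie at chr3:145649986-145650235 for Cyr61 (minus strand), chr19:36119845-36120094 for Ankrd1 (minus strand) and chr9:102717554-102717803 for Amotl2 (plus strand).
Cyr61: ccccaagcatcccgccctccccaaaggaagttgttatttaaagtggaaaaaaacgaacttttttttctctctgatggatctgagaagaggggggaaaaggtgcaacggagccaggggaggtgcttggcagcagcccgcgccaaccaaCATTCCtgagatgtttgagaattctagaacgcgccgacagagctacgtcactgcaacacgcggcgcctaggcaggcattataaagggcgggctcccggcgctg
Ankrd1: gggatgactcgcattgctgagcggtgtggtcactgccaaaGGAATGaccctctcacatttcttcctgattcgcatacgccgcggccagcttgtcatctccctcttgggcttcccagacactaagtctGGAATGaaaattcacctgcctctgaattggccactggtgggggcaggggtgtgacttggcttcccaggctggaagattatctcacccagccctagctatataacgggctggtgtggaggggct
Amotl2: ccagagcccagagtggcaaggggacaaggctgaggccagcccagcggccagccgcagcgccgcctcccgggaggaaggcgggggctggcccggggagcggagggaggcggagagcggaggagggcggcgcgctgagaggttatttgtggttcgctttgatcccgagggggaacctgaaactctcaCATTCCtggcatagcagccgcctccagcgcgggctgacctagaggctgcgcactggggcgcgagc
The element began 103 bases before the start in Cyr61, 210 and 123 bases before it in Ankrd1 and 65 bases before it in Amotl2. Both copies in Ankrd1 read GGAATG, the reverse complement. It was also present in Yap1 and Wwtr1, so 5 of the 8 members with a window held it, and it was not in the windows of Lats2, Piezo1 and Trpv4. Over all 32851 such windows 12.6% held it, or 14.4% of 27025 genes. The AP-1 element TGANTCA (both strands; 6.75% of windows) and the CArG box read by SRF (1.47% of windows) were in the window of 0 of the 8. Cyr61, which rose, and Amotl2, which did not pass, each held 1 TEAD element, and a match of letters does not show that a factor binds.

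Of the co-activators and their partners, Yap1, Wwtr1, Lats2 and Tead1, 0 of 4 passed in any comparison. Yap1 read 10.12, 10.17 and 10.24 in wild type SB and 10.02, 9.79 and 10.09 in wild type VILI. In knockout it read 10.06, 9.996 and 10.19 under SB and 9.95, 9.90 and 9.79 after VILI. Every VILI array lay below every SB array of its genotype, by a small distance. The change was -0.21 averaged over genotypes (SE 0.07, 95% interval -0.37 to -0.04, limma adjusted p = 0.0740), and with quantile normalized arrays it was -0.24 and passed (limma adjusted p = 0.0464). The dimmer Yap1 probe set, 1416487_a_at, gave 0.20 in wild type and 0.01 in knockout, so the sets disagree.

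Wwtr1, which encodes TAZ, read 12.39 to 12.63 in wild type SB, 12.34 to 12.65 in wild type VILI, 12.25 to 12.50 in knockout SB and 12.12 to 12.47 in knockout VILI. Its change averaged over genotypes was 0.01 with a 95% interval of -0.19 to 0.20, and the other 2 probe sets gave between 0.07 and 0.15 in each genotype. For the average alone, the interval leaves out a change of more than 0.20 in either direction on the log2 scale. The 95% intervals were wider in single genotypes, at -0.21 to 0.34 in wild type and -0.32 to 0.23 in knockout.

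Lats2 was represented by 1439441_x_at, which read 10.04, 10.10 and 10.33 in wild type SB, 10.13, 10.29 and 10.22 in wild type VILI, 10.41, 10.31 and 10.18 in knockout SB and 10.16, 10.05 and 9.99 in knockout VILI. The knockout VILI arrays lay below the knockout SB arrays, and the wild type groups overlapped. The change was 0.06 in wild type and -0.23 in knockout (limma adjusted p = 0.805 and 0.221). The other 2 kept sets, 1437101_at and 1419678_at, had the same signs, at 0.04 and -0.21 and at 0.26 and -0.56. Another 3 Lats2 sets stayed below the array medians.

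Tead1 binds DNA for YAP and TAZ. It read 11.46, 11.76 and 11.63 in wild type SB, 10.77, 11.07 and 11.58 in wild type VILI, 10.77, 11.10 and 11.35 in knockout SB and 11.30, 10.94 and 11.10 in knockout VILI. The wild type SB arrays were above all knockout SB arrays and overlapped wild type VILI through replicate 3. The VILI change was -0.48 in wild type (SE 0.20, limma adjusted p = 0.202) and 0.04 in knockout (SE 0.20, limma adjusted p = 0.922). The other Tead1 set, 1423434_at, stayed below the array medians.

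Piezo1 read 9.54, 9.87 and 9.64 in wild type SB, 9.31, 9.46 and 9.49 in wild type VILI, 9.28, 9.18 and 9.46 in knockout SB and 9.32, 9.11 and 9.28 in knockout VILI. Wild type SB was the highest group and did not overlap any other. The VILI change was -0.26 in wild type (SE 0.12, limma adjusted p = 0.243) and -0.07 in knockout (SE 0.12, limma adjusted p = 0.781). Endothelial markers, whose cells are known to express Piezo1, had means over 10 genes of 11.69 to 11.91 in wild type SB, 11.41 to 11.50 in wild type VILI, 11.55 to 11.74 in knockout SB and 11.01 to 11.49 in knockout VILI. Of the 10, 5 fell averaged over genotypes, beside 9.39% of all genes. The part of endothelial cells in the Piezo1 values was not tested.

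**Figure D3:**
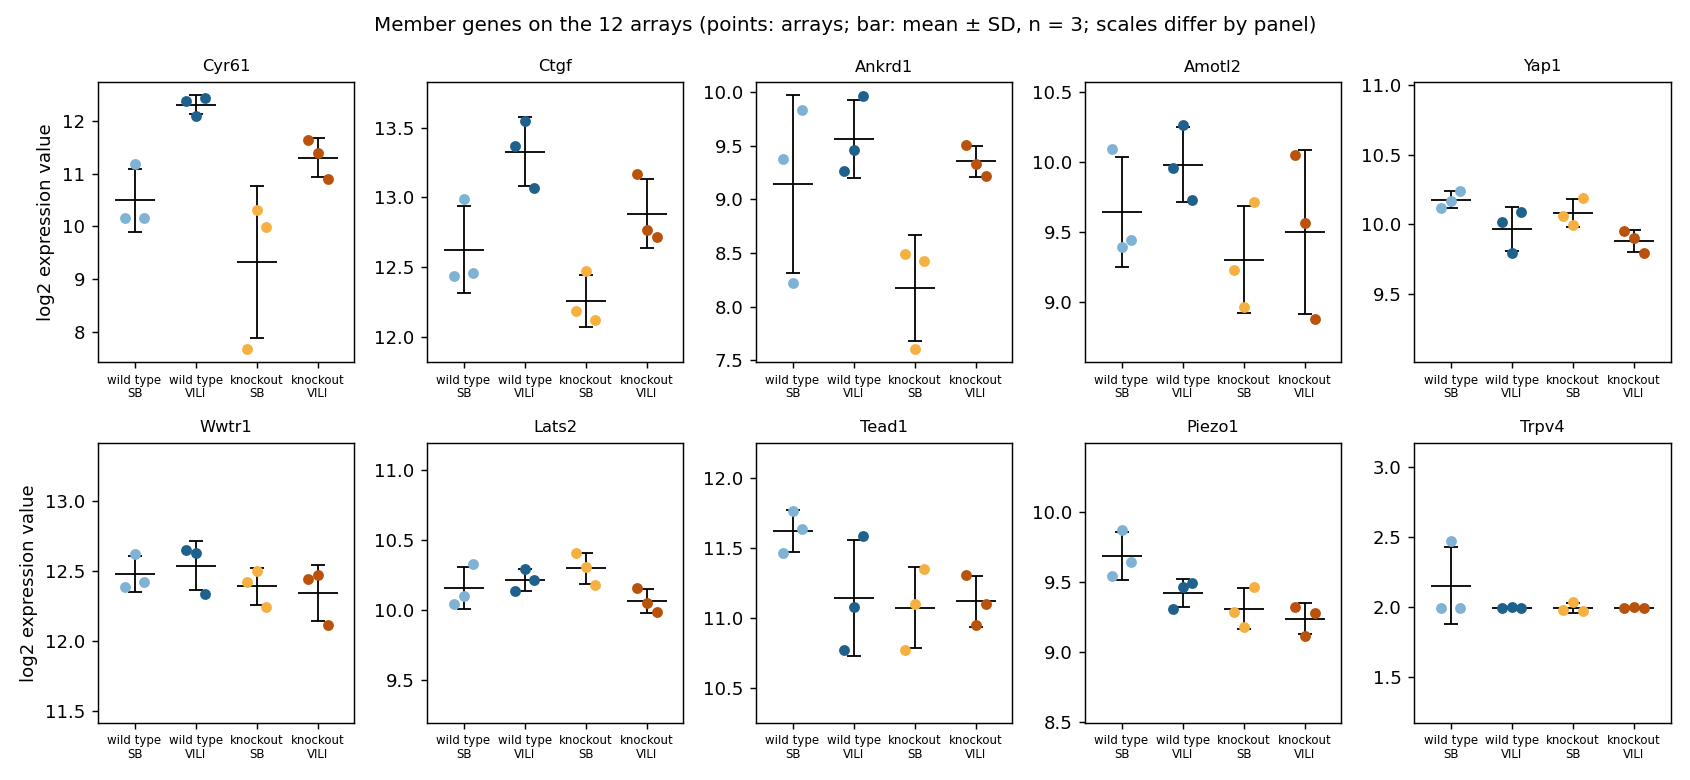
Log2 expression value (vertical axes, scales differ) of the 10 members by group (horizontal axes), with arrays as points and bars for the mean ± SD of 3; each gene is shown by its brightest probe set. Cyr61 and Ctgf are higher on every VILI array than on every SB array of the same genotype, and Trpv4 sits near 2 on nearly all arrays.

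In single genotypes 0 of the 9 tested members passed. At an unadjusted p under 0.05 (limma) there were 3 in wild type, namely Cyr61, Ctgf and Tead1, and 4 in knockout, namely Cyr61, Ctgf, Ankrd1 and Lats2. Of all 10996 genes, 2327 in wild type and 2436 in knockout had an unadjusted p under 0.05 (limma). At an adjusted p under 0.05 limma called 2.64% of all genes in wild type (290) and 4.47% in knockout (491). These totals hang on single arrays, with 19 genes in wild type without wild type VILI replicate 2 and 487 without knockout SB replicate 3, and with 69 in knockout without knockout VILI replicate 2 and 713 without knockout VILI replicate 1. Arrays did not overlap in both genotypes, in the same direction, for 2 members that were higher (Cyr61 and Ctgf) and 1 that was lower (Yap1), beside 6.01% and 6.19% of all genes. Within wild type 4 of the 9 did not overlap (31.6% of all genes), and within knockout 5 (23.6% of all genes).

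**Figure D4:**
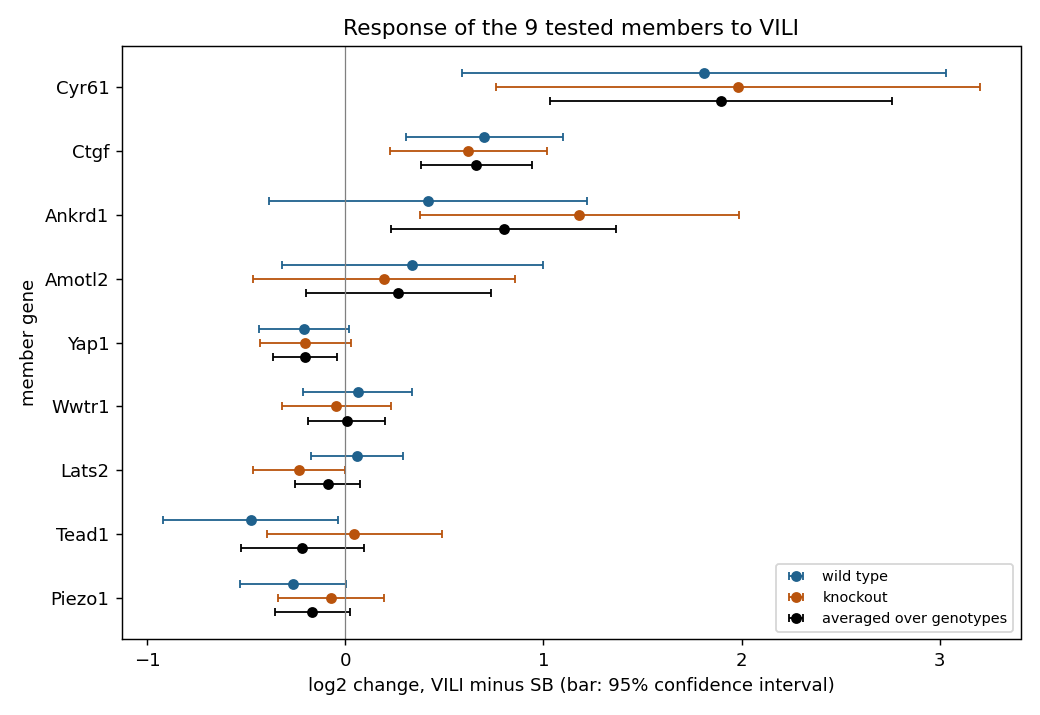
Log2 change of the 9 tested members, VILI minus SB (horizontal axis), in wild type, in knockout and averaged over genotypes, with 95% confidence intervals of the limma contrast before multiple-testing adjustment. Cyr61 (1.90) and Ctgf (0.66) have averages past the adjusted threshold, and the intervals of Yap1, Wwtr1, Lats2, Tead1 and Piezo1 lie within about 1 log2 unit of 0.

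The knockout was set against wild type next. Under SB, 0 of 9 members passed, beside 0.109% of all genes called by limma. At an unadjusted p under 0.05 (limma) there were 3 members, namely Ankrd1, Tead1 and Piezo1, beside 1113 of all 10996 genes. After VILI 0 members passed, beside 0.1% of all genes. Unadjusted there was then 1 member, Ctgf, beside 756 of all 10996 genes. All 4 target genes had lower means in knockout in both treatments on the probe set used for each. Among their other sets only 1457823_at of Cyr61 went the other way, with means of 4.38 in wild type SB and 4.46 in knockout SB. The SB differences were -1.17 for Cyr61 (SE 0.56, limma adjusted p = 0.505), -0.97 for Ankrd1 (SE 0.37, limma adjusted p = 0.407), -0.37 for Ctgf (SE 0.18, limma adjusted p = 0.519) and -0.34 for Amotl2 (SE 0.30, limma adjusted p = 0.729). Each of these differences moved by over 1.5 times with single arrays left out. Over the fits without 1 array they ran from -1.67 to -0.35 for Cyr61, from -1.43 to -0.63 for Ankrd1, from -0.47 to -0.19 for Ctgf and from -0.55 to -0.11 for Amotl2. The values nearest 0 came without knockout SB replicate 1 for Cyr61 and without wild type SB replicates 3, 2 and 1, respectively, for the others.

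In several marker lists the genes leaned to 1 side between genotypes, with 0 genes called. Macrophage markers had higher knockout means for 8 of 8 genes under SB but for 2 of 8 after VILI. Type I epithelial markers were lower for 6 of 8 under SB and 8 of 8 after VILI, and type II markers for 3 of 7 and 7 of 7. Smooth muscle markers had lower knockout means for 7 of 7 genes in both treatments, with a median of -0.61 under SB and -0.37 after VILI. B cell markers were higher for 4 of 4 tested genes of 8, with medians of 1.42 and 1.20, and T cell markers for 3 of 3 of 8, with medians of 1.31 and 1.11. Knockout replicate 3 was the highest of its group in both lists. After VILI the B cell means were 7.29, 6.31 and 10.20 in knockout and 6.49 to 7.12 in wild type. The T cell means were then 5.99, 5.90 and 8.09 against 5.24 to 5.88. Under SB the T cell means were 6.14 to 7.05 in knockout and 4.94 to 5.87 in wild type. In all these lists limma called 0 genes between genotypes. At an unadjusted p under 0.05 (limma) there were 5 of the smooth muscle genes under SB and 2 after VILI. In the same order there were 2 and 1 of the T cell genes, 0 and 1 of the macrophage genes and 1 and 1 of the type I genes. There were 0 of the B cell genes and 0 of the type II genes in both treatments. The part of these cells in the target gene differences was not tested.

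Tead1 and Piezo1 were lower on every knockout SB array than on every wild type SB array, by 0.55 (SE 0.20, limma adjusted p = 0.401) and 0.38 (SE 0.12, limma adjusted p = 0.357), where 11.5% of all genes were lower without overlap. After VILI their differences were -0.02 and -0.18. On the probe set used for Cyr61, every knockout array was then lower than every wild type array, as for 8.13% of all genes. The difference was -1.001 (SE 0.56, limma adjusted p = 0.753). The Cyr61 set 1438133_a_at also had every knockout VILI array below every wild type VILI array. The dimmer sets 1442340_x_at and 1457823_at did not. On them knockout VILI replicate 2 read 9.11 and 9.17, above the highest wild type VILI array (8.57 and 8.53). On the probe set used for each, 8 of 9 members had lower knockout means under SB and 9 of 9 after VILI. The shares over all genes were 62.2% and 52.3%. The dimmer Yap1 set 1416487_a_at went the other way. Its means were 7.51 in knockout and 7.27 in wild type under SB, and 7.52 and 7.47 after VILI. No member was called in either comparison. These comparisons share no arrays with each other, but each shares its arrays with the VILI comparisons.

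The response to VILI was not shown to differ between genotypes for any member. In the interaction test (knockout response minus wild type response) limma called 0 of 9 members and 0% of all genes. At an unadjusted p under 0.05 there were 0 of 9 members, beside 288 of all 10996 genes. The differences were 0.17 for Cyr61 (95% interval -1.55 to 1.90) and -0.08 for Ctgf (95% interval -0.64 to 0.48). For Ankrd1 it was 0.76 (95% interval -0.37 to 1.90) and for Tead1 0.52 (95% interval -0.10 to 1.15).

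The other YAP and TAZ target genes split. Of 22 listed, 20 were tested, and averaged over genotypes 4 rose and 3 fell, with a median of 0.08. The shares over all genes, for this list and those below, were 8.42% for rises and 9.39% for falls. Those that rose were Thbs1, Tnc, F3 and Nt5e, and those that fell were Edn1, Foxf2 and Rbms3. The 4 rises held in every alternative setting, while without the 2 knockout arrays with high B cell markers Edn1 was the only fall.

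Thbs1, which encodes the matrix protein thrombospondin 1, read 9.01, 11.09 and 9.55 in wild type SB and 11.54, 11.91 and 11.93 in wild type VILI. It read 9.94, 10.50 and 8.90 in knockout SB and 11.26, 12.03 and 10.85 in knockout VILI. No VILI array overlapped the SB arrays of its genotype, and Thbs1 rose by 1.76 averaged over genotypes (SE 0.37, limma adjusted p = 0.00959), 3.38-fold. Tissue factor, F3, which starts coagulation, rose by 1.37 (SE 0.21, limma adjusted p = 0.00251), and Nt5e, the enzyme that makes extracellular adenosine, by 0.59 (SE 0.14, limma adjusted p = 0.0171).

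The matrix gene Tnc rose by 1.38 (SE 0.20, limma adjusted p = 0.00190) and was the only gene of the list called between genotypes. It read 6.07, 7.13 and 6.89 in wild type SB and 5.09, 4.73 and 4.62 in knockout SB, a difference of -1.88 (SE 0.28, limma adjusted p = 0.0292). After VILI it read 8.04, 7.64 and 7.83 in wild type and 6.41, 6.02 and 6.84 in knockout. The genotype call passed in 8 of 20 alternatives and was at 0.153 without wild type SB replicate 3, and it did not pass without the 2 knockout arrays with high B cell markers. Against the rises, the vasoconstrictor gene Edn1, also a known YAP target, fell by 1.30 (SE 0.19, limma adjusted p = 0.00215). It read 11.94, 11.19 and 10.70 in wild type SB and 9.95, 9.86 and 9.30 in wild type VILI, with 10.42, 10.88 and 10.90 in knockout SB and 9.76, 9.69 and 9.67 in knockout VILI, and no SB array reached down to a VILI array.

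Of 31 listed Hippo pathway genes, 27 were tested. Averaged over genotypes 2 rose and 3 fell, with a median of -0.07, beside 8.42% and 9.39% of all genes. The angiomotin gene Amot fell by 0.73 (SE 0.15, limma adjusted p = 0.00941), Tead2 by 0.96 (SE 0.25, limma adjusted p = 0.0245) and the LIM protein gene Ajuba by 0.49 (SE 0.13, limma adjusted p = 0.0290). The kinase gene Stk38l rose by 0.51 (limma adjusted p = 0.0104) and the scaffold gene Rassf1 by 0.48 (limma adjusted p = 0.0246). Without the 2 knockout arrays with high B cell markers Amot and Stk38l alone passed. Amot read 7.36, 7.86 and 7.57 in wild type SB and 7.23, 7.24 and 6.87 in wild type VILI, against 7.66, 7.82 and 7.06 in knockout SB and 6.64, 6.64 and 6.34 in knockout VILI, with no overlap in either genotype. Lats1, the other LATS kinase gene, was at 0.18 (limma adjusted p = 0.146).

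Of 22 other stretch-gated channels and mechanosensors 19 were tested, 1 rose and 3 fell, with a median of -0.10. The channel genes Trpm4 and Trpc1 fell by 0.65 (SE 0.13, limma adjusted p = 0.00817) and 0.36 (SE 0.09, limma adjusted p = 0.0220), and the caveolin gene Cav1 by 0.25 (SE 0.06, limma adjusted p = 0.0239). The focal adhesion gene Zyx rose by 0.39 (limma adjusted p = 0.0356) and passed in 10 of 20 alternatives. Without the 2 knockout arrays with high B cell markers Vcl rose as well. Trpm4 read 7.65, 8.01 and 7.54 in wild type SB and 7.19, 6.9998 and 7.17 in wild type VILI, with 7.98, 7.79 and 7.63 in knockout SB and 7.32, 7.29 and 6.76 in knockout VILI, again without overlap. Piezo2, the relative of Piezo1, was at -0.10 (limma adjusted p = 0.739).

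The actin-regulated factor SRF shares targets with YAP. Of 17 MRTF and SRF genes 2 rose and 3 fell, with a median of -0.02. Srf read 8.06, 9.17 and 8.54 in wild type SB and 9.12, 9.37 and 9.74 in wild type VILI, which overlapped, and 7.84, 8.59 and 8.13 in knockout SB and 9.27, 9.02 and 8.72 in knockout VILI, which did not. It rose by 0.82 (SE 0.20, limma adjusted p = 0.0188) and Tpm4 by 0.22 (SE 0.06, limma adjusted p = 0.0255). The contractile genes Tagln (0.41), Acta2 (0.40) and Fhl1 (0.32) fell by the values in parentheses on the log2 scale. Without the 2 knockout arrays with high B cell markers Acta2 did not pass (limma adjusted p = 0.0536). With the mean of the kept probe sets of a gene, Srf and Fhl1 did not pass (limma adjusted p = 0.0851 and 0.247). Srf and Fhl1 each passed in 19 of 20 alternatives, and Tpm4 in 14 of 20. Smooth muscle markers, a list that holds Tagln and Acta2 too, had means of 10.29 to 10.78 in wild type SB, 9.94 to 10.25 in wild type VILI, 9.80 to 10.19 in knockout SB and 9.70 to 9.88 in knockout VILI, and their part in these falls was not tested.

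**Figure D5:**
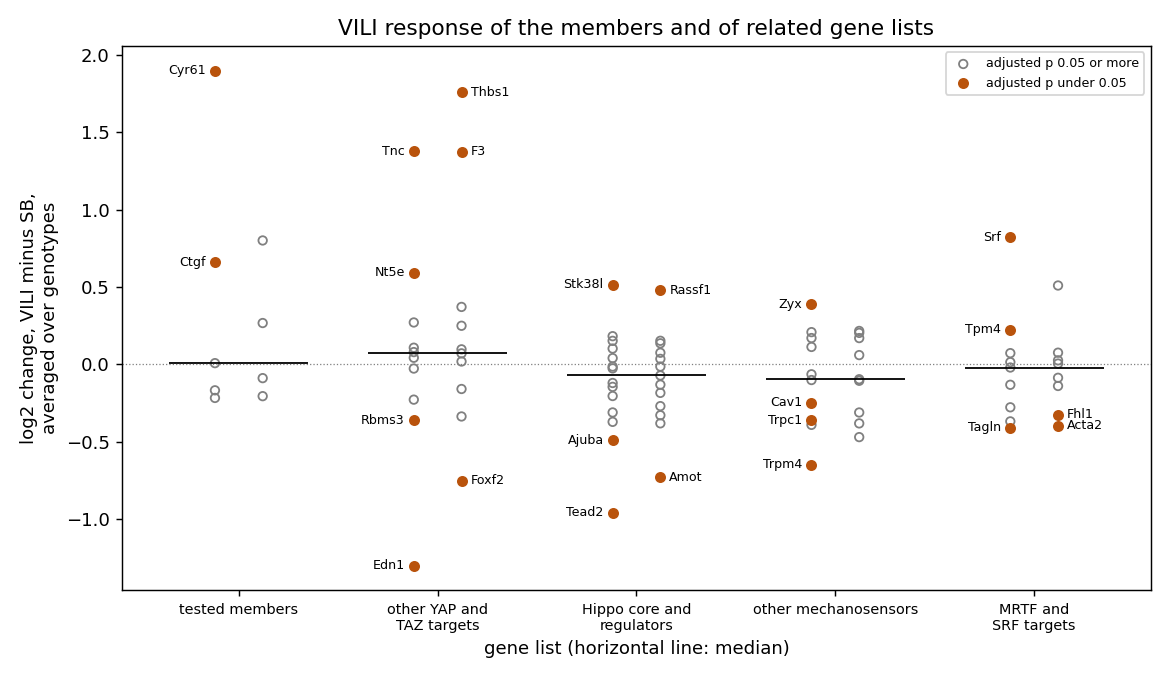
Log2 change, VILI minus SB, averaged over genotypes (vertical axis) for the 9 tested members and 4 related gene lists (horizontal axis); filled points have an adjusted p under 0.05, open points do not, and horizontal lines are list medians. Cyr61 (1.90) and Thbs1 (1.76) stand highest and Edn1 (-1.30) lowest, while every list median lies within 0.10 of 0.

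Across the 12 arrays the genes most like Cyr61 in pattern were Nrbf2 (Pearson's r of 0.94), Lrrfip2 and Rhou (both 0.93), and those most like Ctgf were Gmeb1 (0.95), Armcx5 (0.93) and Ctnnbip1 (0.92). For Ankrd1 they were Oxsm (0.92), Actn1 (0.91) and Uqcrc2 (0.90). The 12 points share the 4 groups and the genes were picked as the highest of 10996, so these values describe likeness only.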

How the data were processed

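Lung RNA of 12 mice was measured on 12 arrays. The deposited values are log2 expression values per probe set, which the authors had normalized. MAS5 and GCRMA stand in the submitters' processing notes, with no role, order or version. The members and gene lists were chosen with earlier results of these data known.

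From the log2 values, 64 control probe sets were dropped and 23082 of 45037 others passed the filter of at least 3 arrays above their own median. The brightest passing probe set by mean stood for each of 10996 genes. Platform annotation gave 34945 probe sets 1 symbol, 932 several and 9160 none, and 34741 matched a RefSeq gene. limma 3.58.1 in R 4.3.3 fitted 1 mean per group to all 12 arrays with a mean-variance trend, 6 two-sided contrasts and Benjamini-Hochberg adjustment at 0.05. It was tested on simulated data. The number of arrays limits precision.

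Named were all members, list genes past the threshold or among the 4 largest changes of a list, Gadd45a as a label check, and the 3 genes most like a member; Lats1, Piezo2 and Myl2 were added after their values were seen. Alternatives changed the filter, probe set choice, trend, scaling, floor, replicate block and arrays used. The reported fits used no pairing by the replicate numbers of the titles, which are not said to pair animals. The replicate block, run as an alternative, spanned all 4 groups. Same-numbered arrays of the SB groups of both genotypes deviated together (r of 0.231, 0.526 and 0.318). Between knockout SB and knockout VILI the values were 0.047, 0.211 and 0.426.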

Additional observations from a re-analysis of the deposited data

How the results depend on the processing

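Over all alternatives run, including each of the 12 fits without 1 array, no member changed direction while called, and the calls of Cyr61 (adjusted p 0.00346 to 0.0282) and Ctgf (0.00362 to 0.0219) averaged over genotypes held in 20 of 20. The count of members past the threshold after VILI, 0 in the reported fits of a single genotype, was 1 in wild type and 2 in knockout with the replicate block (Ctgf at 0.0345 and 0.0393, and Ankrd1 at 0.0466 in knockout), and 1 with only the 6 wild type arrays. With the block, Ankrd1 also passed averaged over genotypes (adjusted p = 0.0257), which made 3 members in place of 2. Leaving out 1 array gave 0 to 1 members in each genotype. The block raised the calls over all genes from 290 to 442 in wild type, from 491 to 667 in knockout and from 1958 to 2307 averaged. Same-numbered arrays correlated at -0.163 to 0.526, above 0.1 in 10 of 18 pairs, and 9 of 12 arrays were closest to their own number. In the genotype comparison under SB the block gave 13 calls in place of 12 and changed no member's call. Calls over all genes also moved by over 1.5 times without the filter (112 in wild type and 306 in knockout), with only the 6 arrays compared (475 and 11; 8 against 12 for the knockout under SB), with low values raised to the median (21 against 11 for the knockout after VILI), and on leaving out 1 array (1128 to 2084 averaged, with 1128 without wild type VILI replicate 2; 42 for the knockout after VILI without knockout VILI replicate 1). Omitting replicate 3 of both knockout groups was chosen after seeing the data; it gave 653 and 110 calls in wild type and knockout and changed no member's call. Quantile normalization gave 40.4% rises among the wild type calls and 51% among those in knockout, against 51.4% and 61.9%. Trpv4, without the filter, was at -0.08 averaged over genotypes (adjusted p = 0.480). Values near the lowest on an array carry little signal, which limits the dim probe sets of Cyr61, Lats2 and Tead1.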

Other observations

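Relatives of the CCN and ANKRD members were measured too. Of 6 listed, 3 passed the filter on low values, and 0 rose and 1 fell averaged over genotypes. Wisp2 (Ccn5), a CCN protein without the C-terminal domain of Cyr61 and Ctgf, read 7.81, 8.72 and 9.58 in wild type SB, 7.67, 8.36 and 6.88 in wild type VILI, 7.96, 8.51 and 6.98 in knockout SB and 7.01, 5.39 and 5.88 in knockout VILI. It fell by 1.40 (SE 0.40, limma adjusted p = 0.0345), with overlap in both genotypes, and passed in 11 of 20 alternatives. Nov (Ccn3) was at -0.27 and Wisp1 (Ccn4) at 0.23, and neither passed. Wisp3, Ankrd2 and Ankrd23 stayed low on these arrays, with highest values of 2.24, 3.70 and 2.20.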
